A study of Mus musculus with 18 samples.

Results

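Perigonadal white fat of weight-restored (WR) mice was compared with that of control (CON) mice by bulk RNA sequencing, with 12 libraries, 6 WR and 6 CON, of the 18 in the series. All mice were female C57BL/6J, labelled wild-type, and were housed singly with a running wheel. CON mice ate ad libitum throughout. WR mice ran on a feeding schedule of shrinking hours until they had lost weight, and were then fed ad libitum until their starting weight had returned and held, while the 6 activity-based anorexia (ABA) mice were taken at the low point of weight. Each CON mouse was killed when its ABA partner reached that point, while WR mice went on through the regain of weight, so that time in the experiment was not matched between WR and CON. Weight history, age and time on the wheel cannot be told apart in this comparison.

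The data were the deposited comparison tables, and not values per mouse. For each gene they gave the difference between groups as a log2 fold change, its moderated t from limma-voom, a p-value and the average log2 CPM (a read count scaled to library size) over all libraries. The table of WR against CON listed 1174 of the 16272 genes tested, those with a Benjamini-Hochberg adjusted p under 0.05, and these are termed called here. Its values are WR minus CON: over the 602 genes also listed for ABA against CON, they equalled ABA minus CON plus WR minus ABA to within 1.02e-14. The same signs put *Lep*, the leptin gene that follows fat mass, at -6.48 on the log2 scale for ABA minus CON and at 6.59 for WR minus ABA. The standard error (SE) of each value was the log2 fold change divided by its t, with 18.4 degrees of freedom for 95% confidence intervals. All 18 libraries shared 1 estimate of spread, and depth per library, values per mouse and the overlap of groups were not analysed here.

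White fat stores triglyceride in adipocytes, which sit in a mesh of collagen, basement membrane and capillaries together with fibroblast-like progenitors, macrophages, mast cells and, in this depot, a mesothelial cover. When fat refills after a fast, adipocytes take up lipid again and the capillary bed and matrix are rebuilt around them. The markers of the tissue were in place: the adipocyte genes *Adipoq*, *Plin1*, *Cidec*, *Fabp4* and *Lep* were not called between WR and CON, and *Lep* lay 0.12 above CON on the log2 scale in WR by the sum of the other comparisons. None of 10 skeletal muscle, 5 epithelial or 7 ovary and uterus markers was called, which does not show that such tissue was absent. The muscle gene *Acta1* averaged 5.04 log2 CPM over all libraries, and no muscle or epithelial marker had a WR minus CON value. The 3 ovary and uterus markers with a value lay below CON, *Pgr* furthest at -1.59 on the log2 scale. Uneven carry-over of neighbouring tissue between mice was not tested.

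Of all genes tested, 657 were higher in WR than in CON (4.04%) and 517 were lower (3.18%), together 7.21%. The changes were small, with a median fold of 1.58 among the higher and 1.33 among the lower genes, and a median SE of 0.13 on the log2 scale. A fold of at least 2 was reached by 133 of the higher and 34 of the lower genes. The adjusted p was under 0.01 for 145 genes.

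The ABA values sorted these 1174 genes into 5 arrangements. In 300 genes (124 higher, 176 lower) the ABA mice already differed from CON with the same sign and WR was not called against ABA, an arrangement termed held at the ABA level; that WR and ABA did not pass the test does not show that they were equal. In 88 genes (32 higher, 56 lower) WR had moved part way back toward CON. In 3 genes WR lay further from CON than ABA did. In 211 genes (173 higher, 38 lower) ABA and WR lay on opposite sides of CON, so that WR had passed it. The remaining 572 (326 higher, 246 lower) were called against CON in WR and not in ABA, and are termed new. Of these, 466 were also called between WR and ABA. That ABA did not pass the test does not show that it equalled CON. WR and ABA were set against the same CON libraries, so their values are given side by side and no correlation was drawn from them.

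**Figure D1:**
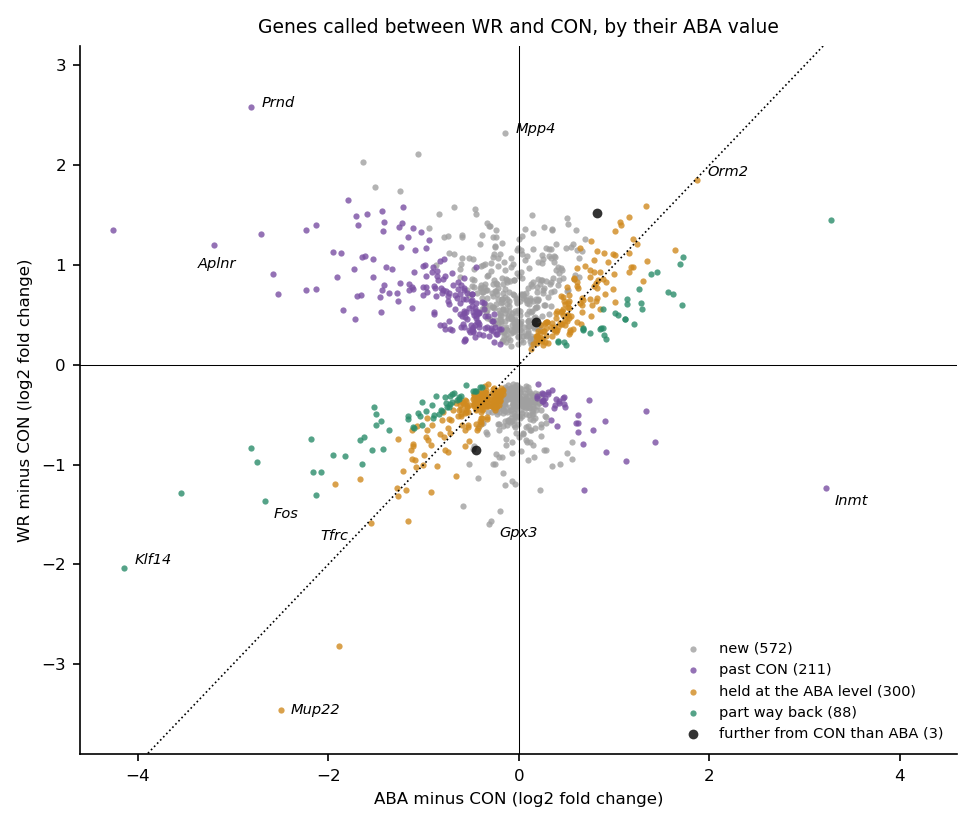
Each point is 1 of the genes called between WR and CON, with ABA minus CON on the horizontal and WR minus CON on the vertical axis, both as log2 fold changes, coloured by arrangement; the dotted line marks equal values. The 300 held genes lie along the line, the 211 genes that passed CON fill the upper left and lower right, and *Mup22* at -3.46 and *Prnd* at 2.59 are the lowest and the highest on the vertical axis.

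Among the genes held at the ABA level, the largest falls were in major urinary proteins, small lipid-binding carriers secreted mainly by liver. *Mup22* was lower in WR by the widest margin (log2 fold change -3.46, SE 0.50, adjusted p = 0.0028), with an estimated group level of 8.01 log2 CPM in CON, 5.51 in ABA and 4.55 in WR, and *Mup11* was 7.03-fold lower (-2.81, SE 0.51). The copies of this family are nearly identical, so how reads were divided between them is uncertain. *Tfrc*, the transferrin receptor that imports iron, was lower in WR (-1.59, SE 0.21, adjusted p = 0.0017) and moved by only -0.03 between ABA and WR (adjusted p = 0.92), at estimated levels of 5.59 log2 CPM in CON and 4.04 in ABA. *Mmp9*, a gelatinase of leukocytes and other cells, was 2.48-fold lower, *Tmem45b* 2.95-fold lower and the lysozyme gene *Lyz1* 2.42-fold lower. The complement protease adipsin, *Cfd*, one of the most abundant messages of fat, was 1.83-fold lower (-0.88, SE 0.13, adjusted p = 0.0028). In the other direction, the acute-phase genes *Orm2* (alpha-1-acid glycoprotein) and *Saa3* (serum amyloid A) were higher, *Orm2* by 1.85 on the log2 scale and *Saa3* 2.65-fold. *Orm2* stood at an estimated 0.70 log2 CPM in CON against 2.57 in ABA and 2.55 in WR.

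Genes that had come part way back included *Fos* and *Egr1*, transcription factors switched on within minutes by growth signals. *Fos* was 2.58-fold below CON in WR (-1.37, SE 0.31, adjusted p = 0.016) after lying 6.32-fold below it in ABA, and *Egr1* was 2.11-fold below. *Klf14*, a Krüppel-like factor imprinted in fat and tied to adipocyte size in mice, was 4.11-fold lower in WR and 17.6-fold lower in ABA, at a low average of -0.69 log2 CPM. *Rasl11b*, a small GTPase-like gene, was 2.47-fold lower, and *Mttp*, which loads triglyceride onto lipoproteins, was 2.01-fold higher. The 3 genes further from CON than in ABA were *Col28a1*, a collagen gene (2.87-fold higher in WR, 1.52, SE 0.28), *Gtpbp2*, a GTPase that rescues stalled ribosomes (1.34-fold higher), and *Trmt61a*, a tRNA methyltransferase subunit (1.81-fold lower).

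Genes that had passed CON moved in both directions. *Prnd*, which encodes the prion-like protein doppel, was 6.01-fold higher in WR than in CON (2.59, SE 0.40, adjusted p = 0.0030) although ABA lay 7.02-fold below CON. *Inmt*, an N-methyltransferase of indoleamines, went the other way, 2.35-fold below CON in WR after 9.37-fold above it in ABA. *Chchd10*, a protein of the mitochondrial intermembrane space, and *Ppa1*, the cytosolic pyrophosphatase, were 1.71-fold and 1.73-fold lower in WR and higher in ABA. Among new genes, *Mpp4*, a scaffold protein of photoreceptor synapses, was higher by 2.32 on the log2 scale at a low average of 0.29 log2 CPM, while *Gpx3*, the secreted selenium-dependent glutathione peroxidase, was 3.02-fold lower at an average of 10.13.

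The smallest adjusted p belonged to *Zfp979*, a rodent zinc finger gene on chromosome 4 of GRCm38 from 147611937 to 147642513, which was 2.12-fold higher (1.08, SE 0.12, 95% confidence interval 0.83 to 1.33, adjusted p = 5.00e-04). Its estimated level was 2.52 log2 CPM in CON, 2.24 in ABA, and it was higher in WR by 1.36 than in ABA. *Pde4b*, which breaks down cAMP, was 1.98-fold higher after falling in ABA. *Trim24*, a cofactor of nuclear receptors, was 1.52-fold higher and held. *Sema6d*, a guidance semaphorin, and *Crim1*, a membrane protein that binds bone morphogenetic proteins, were 1.59-fold and 1.56-fold higher and new. *Chrnb1*, a nicotinic receptor subunit, and *Trp53i11*, a p53-inducible gene, were 2.12-fold and 2.28-fold higher. *Tfrc*, *Ifit2* and *Mup22* complete these 10 genes.

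**Figure D2:**
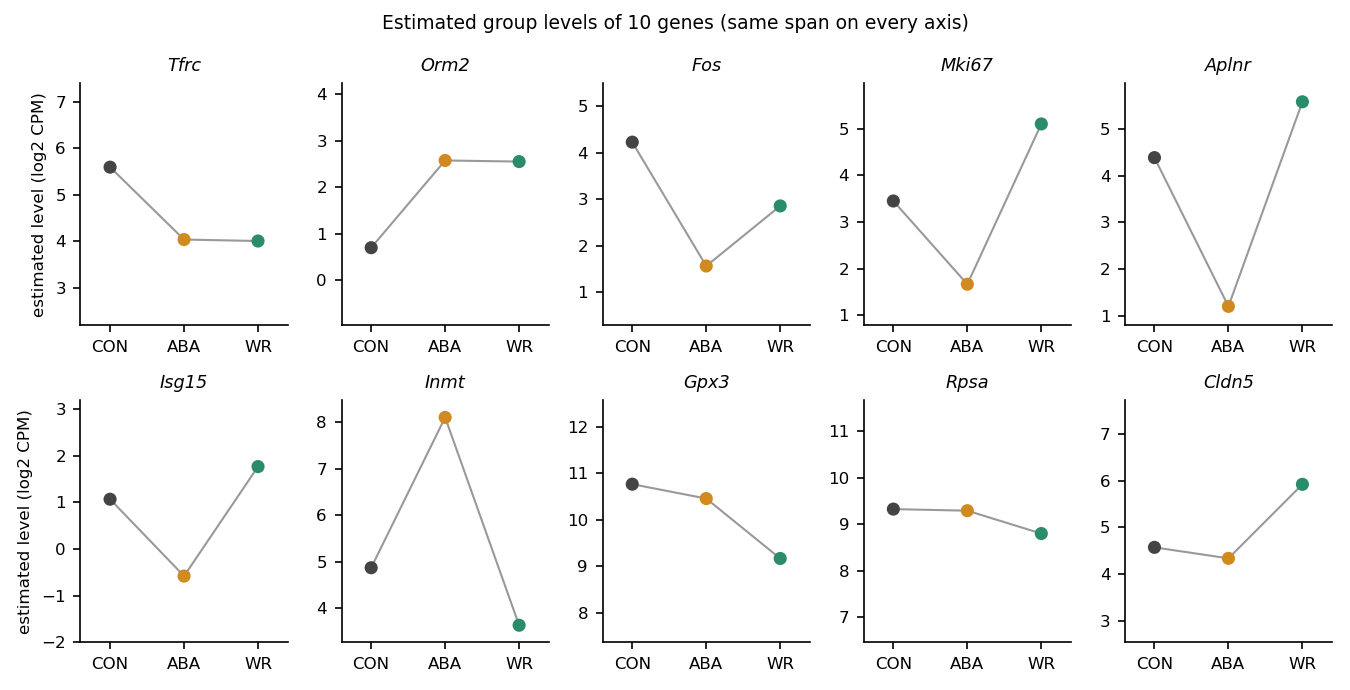
Estimated group levels in log2 CPM of 10 genes in CON, ABA and WR, 6 libraries each, computed from the average over all libraries and the differences between groups, with no error bar; every axis spans the same number of log2 units. *Tfrc* and *Orm2* stayed near ABA, *Fos* returned part way, *Mki67*, *Aplnr*, *Isg15* and *Inmt* crossed the CON level, and *Gpx3*, *Rpsa* and *Cldn5* moved mainly in WR.

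Genes were next read in 53 lists by role. A gene could be in several lists, so their counts overlap. *Heyl* and *Notch3* count in both the Notch and the pericyte lists, and *Tie1* and *S1pr1* in both the endothelial and the angiogenic lists. A list is described by how many of its tested members were called, beside the 4.04% and 3.18% of all genes, and its median carries no test. The lists were chosen with earlier results of these data known, so their shares describe these data and test nothing. In bulk tissue, more cells of a type and more RNA per cell cannot be told apart, which holds for every list named for a cell type or for division.

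**Figure D3:**
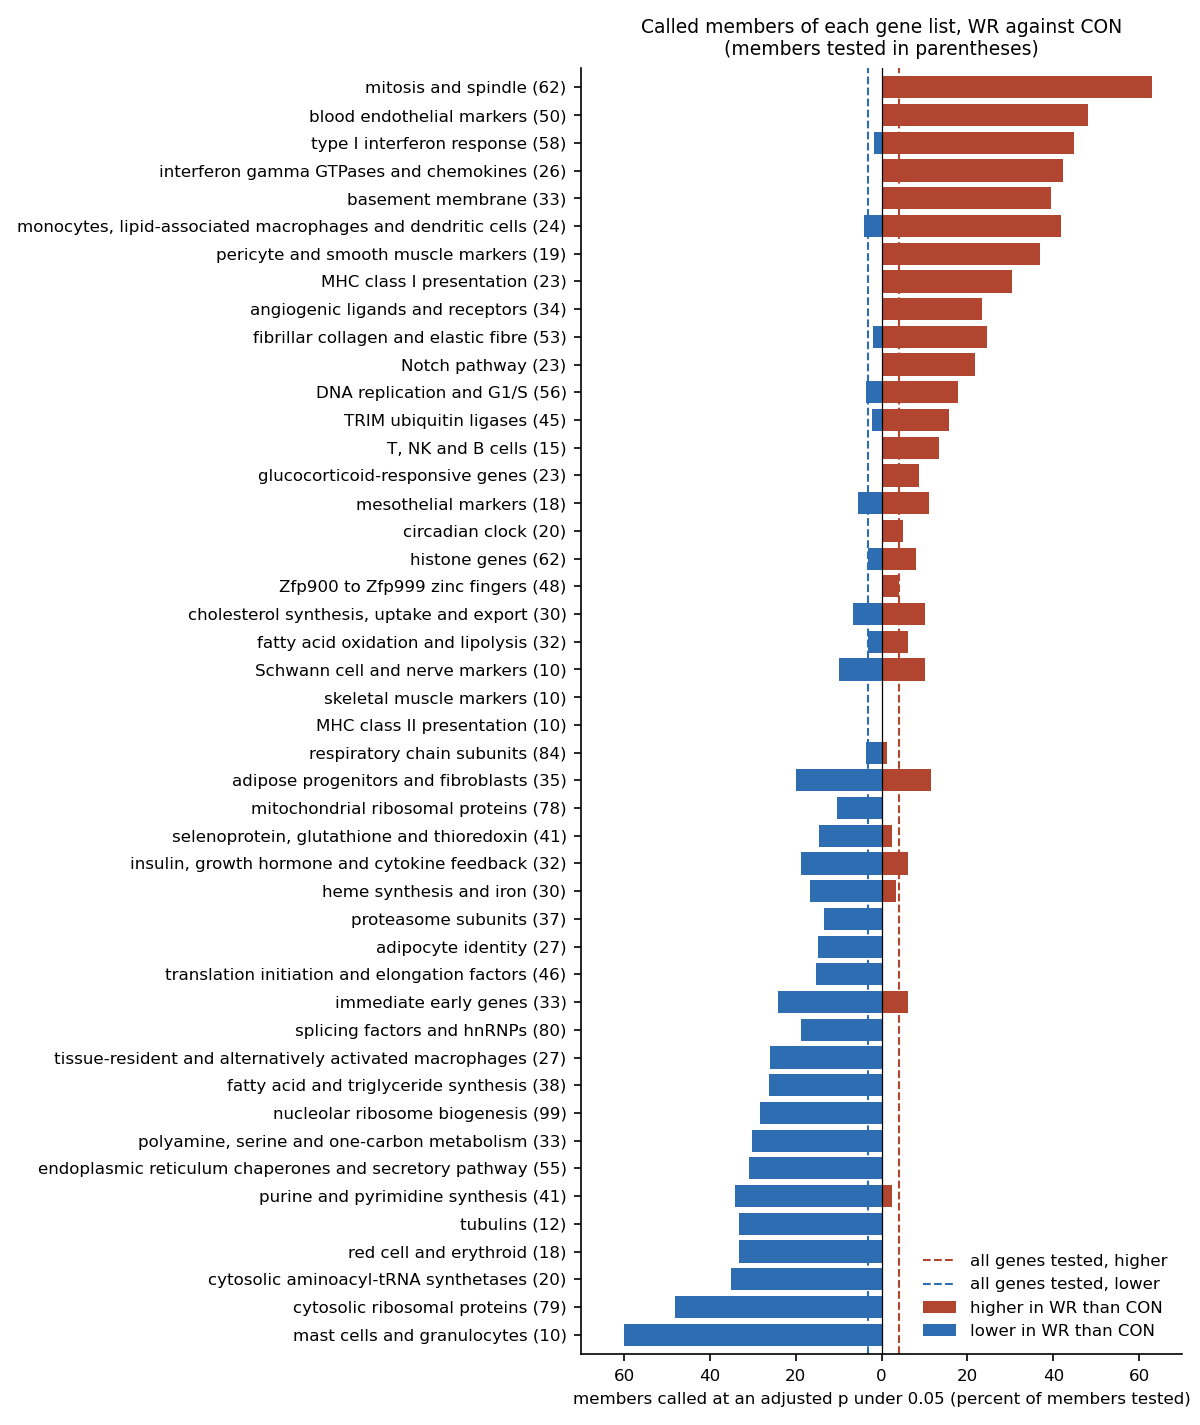
Bars give, for lists with at least 10 tested members (number in parentheses), the percent of members called higher in WR (right) or lower (left); dashed lines mark the share among all genes tested, 4.04% higher and 3.18% lower. Mitosis, endothelial and interferon lists lie at the top, and mast cell, ribosomal protein and aminoacyl-tRNA synthetase lists at the bottom.

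Mitosis genes held the highest share of risen members: 39 of the 62 tested rose (62.9%) and none fell. Their folds ran from 1.38 (*Smc4*, a condensin subunit) to 4.31 (*Aspm*, a spindle pole protein). *Cenpf*, which binds kinetochores, was 4.10-fold higher (2.03, SE 0.44, adjusted p = 0.013). *Mki67*, the proliferation marker Ki-67, was 3.15-fold higher (1.65, SE 0.39, adjusted p = 0.020), with estimated levels of 3.45, 1.66 and 5.11 log2 CPM in CON, ABA and WR. The citron kinase gene *Cit*, *Knstrn*, *Diaph3* and *Sgo2a*, all acting on the spindle, chromatid cohesion or cytokinesis, were 2.02-fold to 2.83-fold higher. By arrangement, 15 of the 39 passed CON from below, 2 (*Fbxo5* and *Anln*) were held, and 22 were new. Most of the new ones lay below CON in ABA without being called, such as *Prc1*, the central spindle bundler, at -0.68 in ABA and 1.58 in WR. The SEs were wide, 0.39 for *Mki67* and 0.47 for *Aspm*.

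In the DNA replication and G1/S list, 10 of 56 members were higher and 2 lower. The risen members included the cell-cycle repressors *E2f7* (2.47-fold, 1.31, SE 0.21, adjusted p = 0.0036) and *E2f8* (2.51-fold), the activators *E2f1* and *E2f2* (1.62-fold and 1.60-fold), and the repair helicase gene *Brip1* (1.26 on the log2 scale). *Cdk4*, the G1 kinase, was 1.28-fold lower, as was the polymerase subunit *Pold2*. Histone genes gave 5 higher and 2 lower of 62, among them *H3c3* at 2.86-fold and *H2bc24* at 2.77-fold higher.

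Many mitosis genes carry CCAAT boxes, bound by the activator NF-Y, and the cell cycle homology region, spelled TTTGAA, through which they are repressed outside division. Promoters (250 bases before to 50 after the start) came from RefSeq on GRCm38.p6 and were found for 53 of the 62 mitosis genes. On either strand, 73.6% of them held TTTGAA, against 14.7% of the 11002 tested genes with a promoter in the table, and 71.7% held CCAAT, against 42.8%. Among called mitosis genes the shares were 76.5% and 70.6%, and among those not called 68.4% and 73.7%. To show where the element sits, 60 bases are printed, 5′ to 3′ on the gene's strand, for 4 called genes with the smallest adjusted p among those holding it. TTTGAA or its reverse complement is in capitals. The stretches are chr5:30666875-30666934 (plus strand) for *Cenpa*, the centromeric histone, chr7:80294419-80294478 (plus) for *Prc1*, chr9:61946765-61946824 (minus) for *Kif23*, a cytokinesis kinesin, and chr10:5805430-5805489 (minus) for *Fbxo5*, an inhibitor of the anaphase-promoting complex.
Cenpa: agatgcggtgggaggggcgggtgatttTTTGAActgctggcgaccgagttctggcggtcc
Prc1: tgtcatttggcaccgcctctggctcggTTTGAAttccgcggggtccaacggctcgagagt
Kif23: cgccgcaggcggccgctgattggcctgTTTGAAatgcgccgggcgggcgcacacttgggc
Fbxo5: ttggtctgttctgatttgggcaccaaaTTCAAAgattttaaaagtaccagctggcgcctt

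Vessel genes rose as well. Of 50 blood endothelial markers, 24 were higher and none was lower, with folds of 1.44 to 2.68. *Cldn5*, the tight-junction claudin of capillaries, was 2.56-fold higher (1.35, SE 0.26, adjusted p = 0.0092), at estimated levels of 4.57 log2 CPM in CON, 4.33 in ABA and 5.92 in WR. *Bcl6b*, an endothelial transcription repressor, was 2.68-fold higher and *Cdh5*, the vascular cadherin, 2.09-fold higher. *Gpihbp1*, which carries lipoprotein lipase across the capillary wall, was 1.96-fold higher and already above CON in ABA. Not every defining marker moved: *Pecam1* and *Kdr* were not called. Of 24 called markers, 3 were held, 5 had passed CON and 16 were new. The 24 include *Sox11* (2.13-fold), at a low average of 0.44 log2 CPM.

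Angiogenic signals gave 8 higher and none lower of 34. The peptide apelin, *Apln*, and its receptor *Aplnr* were 2.56-fold and 2.30-fold above CON in WR, while ABA had lain 2.23 and 3.19 below CON on the log2 scale. Notch genes gave 5 higher of 23, with *Notch4* (2.09-fold) and *Notch1* (1.33-fold) known from endothelium and *Notch3* (1.65-fold) and *Heyl* (2.13-fold) from mural cells. The list of pericyte and smooth muscle genes gave 7 higher and none lower of 19, among them the pericyte gene *Rgs5* (95% confidence interval of the log2 fold change 0.64 to 1.37, adjusted p = 0.0047). The contractile smooth muscle genes *Acta2* and *Cnn1* were not called, at -1.02 and -0.94 against CON on the log2 scale. In the lymphatic list *Lyve1*, which resident macrophages also carry, was 1.99-fold lower and the other 7 members were not called.

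Many matrix genes stood above CON in WR. Of 33 basement membrane genes 13 were higher and none lower, 8 of them past CON and 5 new, and 15 of the 33 had been called lower in ABA. They included the collagen IV chains *Col4a1* to *Col4a4* (1.58-fold to 1.71-fold), perlecan (*Hspg2*, 1.71-fold, 0.78, SE 0.16, adjusted p = 0.012), the laminin chains *Lamb1*, *Lamb2*, *Lama2*, *Lama4* and *Lamc1* (1.23-fold to 1.48-fold) and *Sparc*, a collagen-binding protein (1.84-fold). Among 53 fibrillar collagen and elastic fibre genes 13 were higher and 1 lower. *Bgn*, the proteoglycan biglycan, and *Postn*, periostin, were each 1.74-fold higher (0.80, SE 0.13, adjusted p = 0.0039 in both). *Tnc*, tenascin C, was 2.53-fold and *Eln*, elastin, 1.98-fold higher, while *Fbln1*, fibulin 1, was 1.38-fold lower. Except for *Col28a1*, every risen member of the fibrillar list had been below CON in ABA, where 43 of the 53 were called lower. The main fibrillar chains *Col1a1* and *Col3a1* lay 0.44 and 0.49 above CON on the log2 scale in WR and were not called. Of 48 members of the fibrillar list with a value, 35 lay above CON and 13 below. Those below and not called included *Plod2* at -0.83 and *Lum* at -0.45.

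Progenitor and fibroblast markers split, with 4 of 35 higher and 7 lower. The homeobox genes *Meox1* (2.19-fold) and *Meox2* (1.81-fold) and *Irx3* (1.75-fold) were higher, as was the surface marker *Thy1* (1.46-fold). *Pdgfra*, the receptor that marks the progenitors, was 1.31-fold lower, *Igfbp4* 1.42-fold, *Bnc2* 1.43-fold and *Sfrp5*, a Wnt inhibitor, 2.02-fold lower. In the mesothelial list *Msln* was 1.76-fold higher and *Muc16* 1.72-fold higher, complement *C3* was 1.52-fold lower, and *Upk3b* was not called.

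Interferon genes stood above CON in WR. The type I response list had 58 tested members, of which 26 rose and 1, *Ifi205*, fell. *Ifit2*, which blocks translation of viral RNA, was 1.71-fold higher (0.77, SE 0.10, 95% confidence interval 0.55 to 0.99, adjusted p = 0.0019) and was held from ABA. The ligase gene *Herc6* was 1.58-fold higher, *Xaf1* 1.53-fold, the nuclear body gene *Sp100* 1.42-fold and *Ifi213* 1.86-fold. *Isg15*, the ubiquitin-like modifier, was 1.63-fold higher after falling in ABA, with estimated levels of 1.07, -0.58 and 1.77 log2 CPM in CON, ABA and WR. *Irf7*, the master regulator of interferon production, was 1.44-fold higher. Of the 26, 2 were held, 14 had passed CON and 10 were new.

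In the interferon gamma list 11 of 26 genes were higher, none was lower, and all 11 had been called below CON in ABA. They were the GTPases *Tgtp2* (1.89-fold, 0.92, SE 0.17, adjusted p = 0.0074), *Iigp1*, *Gvin1*, *Gbp2*, *Gbp3*, *Gbp4* and *Gbp9*, the T cell attractants *Cxcl9* and *Cxcl10* (1.95-fold and 1.76-fold), nitric oxide synthase *Nos2* (1.98-fold) and *Nlrc5* (1.33-fold), the activator of class I genes. Class I presentation gave 7 higher of 23, with *H2-T23* higher by 0.49 on the log2 scale (SE 0.07, adjusted p = 0.0028) and *H2-Q7* at 1.76-fold. The H2-Q and H2-T genes are near copies of each other, as are the Gbp and Ifit genes, and the division of reads among them is uncertain. None of 10 class II genes was called, and *H2-Ab1* and *Cd74* lay 0.15 and 0.14 above CON on the log2 scale.

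The interferon-stimulated response element has a core spelled TTTC, any 2 bases, then TTTC. It was present on either strand in 54.3% of the 46 type I list genes with a promoter in the table and in 68.8% of 16 interferon gamma list genes, against 3.83% of all tested genes. Among called type I genes it was 46.2%, and among members not called 65.0%. For 5 called genes with the smallest adjusted p among those with the core, 60 bases are printed. The core or its reverse complement is in capitals, to show where it sits. These genes are *Trim34a* (chr7:104244442-104244501, plus strand), *Trim12a* (chr7:104315451-104315510, minus) and *Trim30a* (chr7:104465195-104465254, minus), neighbouring antiviral ubiquitin ligase genes, the DNA-binding *Ifi213* (chr1:173599311-173599370, minus) and *Ifit3b* (chr19:34607778-34607837, plus).
Trim34a: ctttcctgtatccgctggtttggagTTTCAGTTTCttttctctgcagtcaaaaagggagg
Trim12a: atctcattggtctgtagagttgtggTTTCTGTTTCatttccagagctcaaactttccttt
Trim30a: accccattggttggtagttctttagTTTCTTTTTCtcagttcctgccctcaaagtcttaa
Ifi213: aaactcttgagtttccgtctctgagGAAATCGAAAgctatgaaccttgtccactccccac
Ifit3b: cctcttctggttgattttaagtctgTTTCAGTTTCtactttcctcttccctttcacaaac

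Immune cell markers went in different directions. Of 27 genes of tissue-resident and alternatively activated macrophages 7 were lower and none was higher: *Mgl2* (1.68-fold, -0.75, SE 0.13, adjusted p = 0.0044) and *Retnla* (1.88-fold) were part way back, *Ear2* (2.01-fold), *Cd209a*, *Cd209d* and the transcription factor *Maf* (1.26-fold) were held, and *Lyve1* was new. The list members *Adgre1*, a general macrophage marker, and *Mrc1*, the mannose receptor, were not called, at 0.29 and -0.29 against CON on the log2 scale. In the list of monocytes, lipid-associated macrophages and dendritic cells 10 of 24 were higher and 1 lower, with *Adap2* at 1.66-fold, *Cd33* at 1.70-fold, *Ms4a7* at 1.64-fold and *Clec9a*, a marker of cross-presenting dendritic cells, at 1.59-fold. Of genes known from lipid-associated macrophages, *Cd63* was the lower member (1.20-fold), and *Trem2* and *Gpnmb* were not called, at -1.07 and -0.93 against CON on the log2 scale. Mast cell and granulocyte genes gave 6 lower of 10. The list members *Kit* and *Hdc* were not called, at -0.17 and 0.14 against CON on the log2 scale. The mast cell proteases *Tpsb2* (2.38-fold, -1.25, SE 0.24, adjusted p = 0.0081), *Cpa3* (2.28-fold), *Mcpt4* (2.20-fold) and *Cma1* (1.89-fold) and the receptor *Mrgprb1* (2.38-fold) were lower. The other lower member was *Mmp9* (2.48-fold), which is not confined to these cells. In the T, NK and B cell list only *Tnfrsf25* and *Thy1*, of 15, were called.

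Genes of protein synthesis were lower. Of 79 cytosolic ribosomal protein genes, 38 fell (48.1%) and none rose. Each step was small, with folds of 1.21 (*Rpl6*) to 1.44 (*Rpsa*). *Rpl12*, of the large subunit stalk base, was 1.42-fold lower (-0.51, SE 0.09, adjusted p = 0.0054), *Rpl36al* 1.34-fold, *Rpl23a* 1.29-fold and *Rpl39* 1.43-fold. *Rpsa* stood at estimated levels of 9.32 log2 CPM in CON, 9.29 in ABA and 8.80 in WR. In ABA 8 of the 79 were called above CON and 1 below, and 34 of the 38 were new in WR. A log2 change of 0.5 or more in size was reached by 3 of the 38. Processed pseudogenes of these genes share their sequence, and how reads were divided among them is uncertain.

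Messages of ribosomal proteins often start in a run of pyrimidines that lets nutrient signalling through mTOR set their translation. A run of at least 8 C or T overlapping the 5 bases on either side of the annotated start was found in 39.7% of the 58 ribosomal protein genes with a promoter in the table, against 12.1% of all tested genes. The share was 35.7% among called members and 43.3% among those not called. For 4 called genes the run is shown in capitals in 60 bases around the start: *Rpl4* (chr9:64173346-64173405, plus strand), *Rplp2* (chr7:141447621-141447680, plus), *Rpl27a* (chr7:109519171-109519230, plus) and *Rpl14* (chr9:120571486-120571545, plus), which were 1.24-fold, 1.31-fold, 1.27-fold and 1.27-fold lower. In *Rpl4* the run begins at -18 from the annotated start and is 14 bases long, so all of it lies before that start. In the other genes shown the run spans the start.
Rpl4: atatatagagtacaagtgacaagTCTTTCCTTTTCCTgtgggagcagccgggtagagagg
Rplp2: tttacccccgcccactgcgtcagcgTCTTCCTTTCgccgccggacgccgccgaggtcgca
Rpl27a: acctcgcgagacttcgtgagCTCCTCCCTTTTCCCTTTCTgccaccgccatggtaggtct
Rpl14: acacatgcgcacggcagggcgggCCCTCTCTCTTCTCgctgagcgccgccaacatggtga

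The factors that build ribosomes in the nucleolus gave 28 lower of 99 and none higher. Here 16 of the 28 were held at the ABA level and 12 were new. Some new members, such as *Tsr2* and *Wdr74*, lay at -0.21 and -0.16 in ABA and were not called between WR and ABA. Others, such as *Polr1b* at 0.02 in ABA, were called between them. *Nhp2*, of the pseudouridylation complex, was 1.55-fold lower (-0.63, SE 0.10, adjusted p = 0.0037), the methyltransferase genes *Fbl* and *Nop2* 1.45-fold and 1.27-fold, and *Polr1b*, a subunit of RNA polymerase I, 1.37-fold. *Rexo4* had the smallest fold, 1.19. The E-box CACGTG, the site of MYC-type factors, occurred in 7 of the 25 called members with a promoter, in 18.3% of 60 not called and in 11.4% of all tested genes. Mitochondrial ribosomal proteins gave 8 lower of 78, translation factors 7 of 46 (*Eef1g* 1.34-fold, *Eif3d* 1.26-fold), and the cytosolic aminoacyl-tRNA synthetases 7 of 20 (*Iars* 1.33-fold, *Yars* 1.29-fold), with none higher in these lists.

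Among further lists, TRIM ubiquitin ligases gave 7 higher and 1 lower of 45, *Trim59* at 1.83-fold higher and *Trim28* at 1.23-fold lower. Of 48 zinc finger genes numbered with *Zfp979*, only that gene and *Zfp970* (1.65-fold) were called. The nerve list gave 1 higher and 1 lower of 10, the lower being *Chl1*, an adhesion gene of neurons and glia (2.16-fold).

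**Figure D4:**
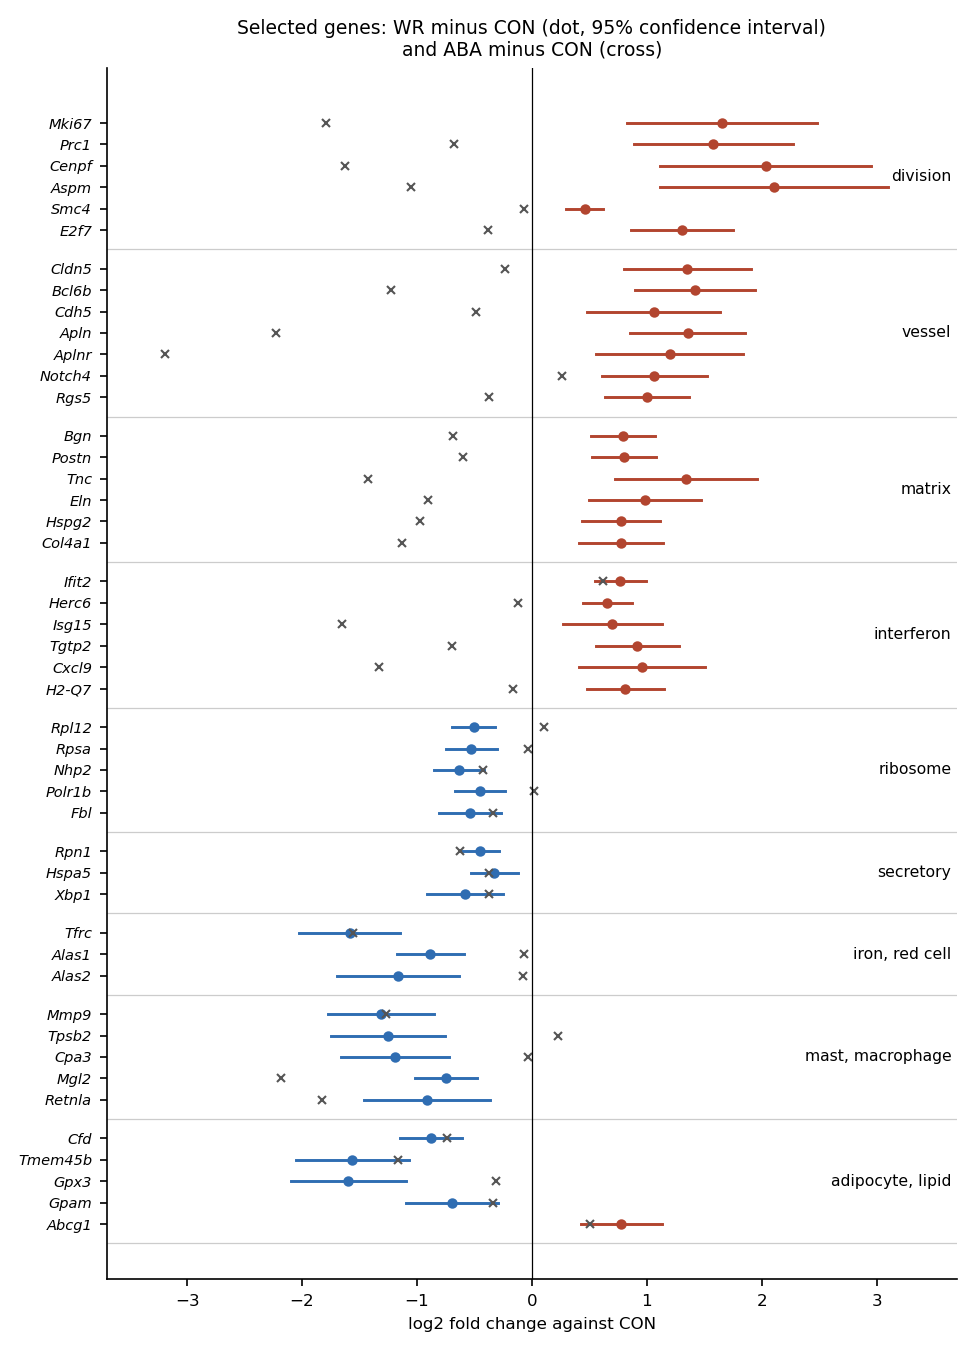
Dots give WR minus CON as a log2 fold change with its 95% confidence interval (6 mice in each group), and crosses ABA minus CON, for genes of 9 roles named in the text; red dots are higher and blue dots lower in WR. In the 6 matrix genes drawn the cross lies left of 0 and the dot right of it, while *Tfrc* and *Mmp9* have dot and cross at nearly the same place.

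Other genes of the growth machinery were lower with them. Splicing factors and hnRNPs gave 15 lower of 80 and none higher, with folds of 1.14 (*Sf3b3*) to 1.33 (*Hnrnpa1*). Purine and pyrimidine synthesis gave 14 lower and 1 higher of 41. *Prps1*, which makes the phosphoribosyl donor of nucleotides, was 1.52-fold lower (-0.60, SE 0.10, adjusted p = 0.0045) and part way back from a lower level in ABA. *Gart* and *Mthfd1* were 1.23-fold and 1.33-fold lower, *Nme3* and *Uck2* 1.47-fold and 1.42-fold lower, and *Ctps2* was 1.27-fold higher. The polyamine, serine and one-carbon list gave 10 lower of 33, including *Srm*, spermidine synthase (1.52-fold), *Amd1*, which supplies its aminopropyl donor (1.65-fold), and *Ckb*, brain-type creatine kinase (1.93-fold). Proteasome subunits gave 5 lower of 37, the CCT chaperonin 3 of 8 (*Cct3*, *Cct5* and *Cct8*) and tubulins 4 of 12 (*Tubb4b*, *Tubb5*, *Tubb6* and *Tuba4a*).

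The endoplasmic reticulum list gave 17 lower of 55 and none higher. *Rpn1*, of the oligosaccharyltransferase, was 1.37-fold lower (-0.45, SE 0.08, adjusted p = 0.0045), *Sec23b*, of the vesicle coat, 1.34-fold, *Xbp1*, the transcription factor of the unfolded protein response, -0.58 on the log2 scale and the chaperone *Hspa5* 1.25-fold. In ABA 29 of the 55 were called lower. By arrangement 6 of the 17 were held, 6 part way back and 5 new.

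Adipocyte identity genes were mostly not called, with 4 lower of 27: *Cfd*, *Tmem45b*, *Klf14* and *Adig*. Fatty acid and triglyceride synthesis gave 10 lower of 38 and none higher. *Mlx*, the partner of the carbohydrate sensor ChREBP, was 1.68-fold lower (-0.75, SE 0.15, adjusted p = 0.011), *Gpam*, the first enzyme of glycerolipid synthesis, 1.62-fold, *Aacs*, which makes acetoacetyl-CoA, 1.71-fold and the glycogen synthase *Gys1* 1.44-fold. The list also took in pyruvate dehydrogenase genes, of which *Pdhb* and *Pdhx* were 1.71-fold and 1.49-fold lower. Of 25 list members with a value, 23 lay below CON and 2 above. Those above, *Scd1* and *Scd2*, were not called, at 0.65 and 0.29 against CON on the log2 scale. *Acacb* and *Elovl6* were not called either, at -0.47 and -0.36. Of 30 cholesterol genes, 2 were lower, among them *Srebf2*, a transcription factor of sterol synthesis (1.33-fold), while 3 were higher: *Abcg1* (1.72-fold), *Mylip*, a ubiquitin ligase gene (1.44-fold), and *Pltp* (1.54-fold). Fatty acid oxidation and lipolysis gave 2 higher (*Angptl4*, an inhibitor of lipoprotein lipase, 1.62-fold, and *Ucp2* 1.26-fold) and 1 lower (*Abcd3*) of 32. Respiratory chain subunits gave 3 lower and 1 higher of 84, a share near that of all genes. Of the 51 with a value, however, 49 lay below CON and 2 above, with a median of -0.25 on the log2 scale. In ABA 46 of the 84 were called above CON.

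The list of insulin, growth hormone and cytokine feedback gave 6 lower and 2 higher of 32. *Cish*, the feedback inhibitor induced by growth hormone, was 2.77-fold lower (-1.47, SE 0.41, adjusted p = 0.039), *Socs3* 1.93-fold, *Pik3r1*, the regulatory subunit of the insulin-activated kinase, 1.81-fold and *Akt1* 1.24-fold, and *Igf2r* and *Tyk2* were 1.38-fold and 1.17-fold higher. The immediate early list gave 8 lower and 2 higher of 33, *Ier2* (1.76-fold), *Dusp4* (1.99-fold) and *Phlda1* (2.09-fold) among the lower and *Per1* and *Klf6* the higher. *Per1*, a clock gene also induced by glucocorticoids, was 1.63-fold higher and was the only clock gene of 20 called. Of 23 glucocorticoid-responsive genes 2 were called, *Per1* and *Angptl4*, although 20 were above CON in ABA. *Fkbp5* stood at -0.10 and *Tsc22d3* at 0.35 on the log2 scale in WR. Others lay further from CON without being called, *Lcn2* at -1.68, *Mt2* at -1.24, *Tat* at 0.72 and *Zbtb16* at 0.81. Of the 22 members with a value, 15 lay above CON and 7 below.

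Of 30 iron and heme genes 5 were lower and 1 was higher. Besides *Tfrc*, the first enzymes of heme synthesis *Alas1* (1.84-fold, -0.88, SE 0.14, adjusted p = 0.0030) and *Alas2* (2.24-fold) were lower, and so were the heme-synthesis transporter gene *Abcb10* and the iron transporter *Slc11a2*. *Fbxl5*, an iron-sensing ligase subunit, was 1.24-fold higher. *Alas2* is the erythroid form, and 6 of 18 red cell and erythroid genes were lower in all, *Car2* (1.81-fold) and *Bpgm* (1.43-fold) among them. *Tfrc* counts in this list as well as in the iron list. The hemoglobin genes *Hba-a1* and *Hba-a2* were not called and had no WR minus CON value, at averages of -0.02 and 0.18 log2 CPM. Against ABA, *Hba-a2* was lower in WR (-2.01 on the log2 scale, adjusted p = 0.010) and *Hba-a1* was not called (-1.16). The part of blood content in these values was not tested. Of 41 selenoprotein, glutathione and thioredoxin genes 6 were lower besides 1 higher, with *Sephs2*, which makes the selenium donor, at 1.57-fold and *Txnrd1* at 1.33-fold lower beside *Gpx3*.

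Few lncRNA genes were called lower, while the share higher lay near the 4.04% of all genes. Of 1124 lncRNA genes 54 were higher (4.80%) and 5 lower (0.445%). Of 1061 loci marked TEC (transcribed regions awaiting experimental evidence) 51 were higher (4.81%) and none lower. Protein-coding genes gave 541 higher (3.99%) and 503 lower (3.71%) of 13561, and pseudogenes 11 higher and 9 lower of 454. In the fifth of protein-coding genes with the lowest expression, 4.09% were higher and 1.66% lower. The part of expression level in the lncRNA and TEC counts was not tested. *Meg3* and *Rian*, maternally expressed lncRNAs of the imprinted Dlk1-Dio3 cluster, were 1.82-fold and 1.45-fold higher and the paternally expressed *Rtl1* 1.65-fold, and all of them had been below CON in ABA. They are neighbours among tested genes on chromosome 12 of GRCm38, from 109541001 to 109661716. In the same cluster *Dlk1* and *Mirg* were not called, at -0.17 and 0.49 against CON on the log2 scale. In all, 14 stretches held at least 3 neighbouring risen genes and none held 3 neighbouring fallen genes. Many of these included predicted loci with no gene name beside a coding gene, and *Ifit2*, *Ifit3* and *Ifit3b* on chromosome 19 formed another.

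The direction of a call went with gene length. Among protein-coding genes the median length of the longest annotated transcript was 4403 bases for higher, 2698 for lower and 3473 for genes not called. When genes were divided into 5 equal groups by that length, 1.73% were higher and 5.90% lower in the shortest group, and in the longest 7.31% were higher and 1.37% lower. Outside 16 lists, ribosomal proteins, mitosis, matrix and interferon included, the medians were 4523, 2818 and 3512 bases. GC content differed little, with medians of 49.2%, 50.9% and 49.7%. Ribosomal protein messages are short and many matrix messages are long, and the part of this gradient in the counts of those lists was not tested.

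**Figure D5:**
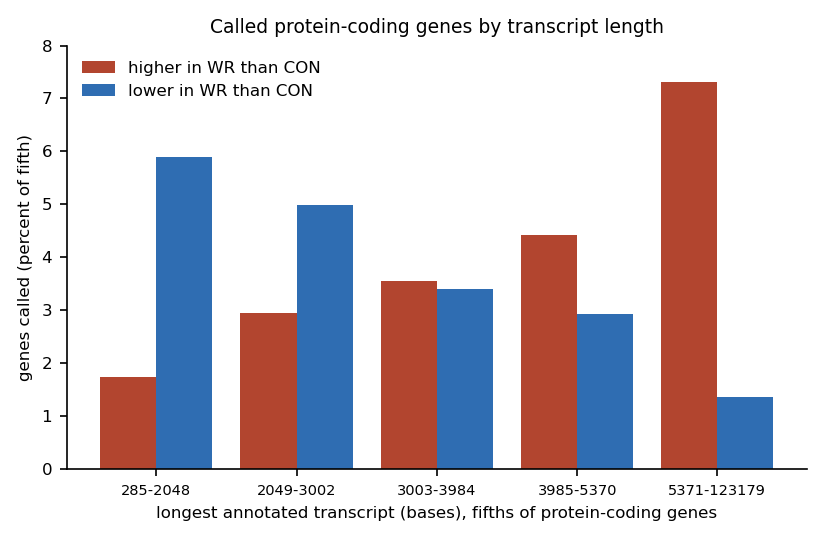
Percent of protein-coding genes called higher (red) or lower (blue) in WR than in CON, in 5 equal groups by the longest annotated transcript in bases. The share of higher genes climbs from 1.73% to 7.31% and that of lower genes drops from 5.90% to 1.37%.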

How the data were processed

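Total RNA of perigonadal fat was sequenced from TruSeq libraries of 6 CON, 6 ABA and 6 WR mice, grouped by the treatment label. The submitters' processing notes name FastQC 0.11.8, Trimmomatic 0.38, STAR 2.5.1a, RSEM 1.3.0, edgeR, limma and the build GRCm38.p6. The deposited log2 values are log2 fold changes and average log2 CPM from the authors' limma-voom fit. The deposited score is its moderated t. The deposited p-values are raw and Benjamini-Hochberg adjusted. These columns are the authors' own comparisons, used because the tables here hold no values per mouse.

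SEs, intervals, missing differences (from the identity between the 3 comparisons) and group levels were computed with Python 3.11.15, pandas 2.3.3, numpy 2.4.6 and scipy 1.17.1, and tested on simulated data. A WR minus CON value could be had for 8103 genes, those listed for WR or ABA. The comparison and the 53 lists were chosen with earlier results of these data known. By rule the named genes came from the 10 smallest adjusted p, the 6 largest changes per direction and arrangement (average log2 CPM of at least 0), and per list the 5 members with the smallest adjusted p in each direction plus the extreme folds. Not all of these are named, some being not reported here, and other genes were chosen after their values were seen. Positions and lengths are from GENCODE M21 (GRCm38), matched for 16260 of 16272 IDs. Whether counting used strand is not given in the sources used here, so overlapping and antisense genes are uncertain. Alternatives were other thresholds, fold limits, gene types, expression minimums, the Benjamini-Yekutieli adjustment and re-centring.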

Additional observations from a re-analysis of the deposited data

How the results depend on the processing

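Counts depended on the threshold, which cannot change the sign of a gene. With an adjusted p under 0.01, 93 genes were higher and 52 lower; with the Benjamini-Yekutieli adjustment, 38 and 21. A log2 change of at least 0.5 left 447 higher and 179 lower genes, and one of at least 1 left 133 and 34. With an average of at least 3 log2 CPM, 411 were higher and 427 lower, so lower genes were then the more numerous. The held, part way back, further, past CON and new groups held 39, 9, 1, 18 and 78 genes with an adjusted p under 0.01, and an unadjusted limit for WR against ABA gave 11 further genes. Under 0.01 and under Benjamini-Yekutieli respectively, the lists kept, of higher members, 5 and 2 for mitosis, 2 and 1 for DNA replication, 3 and 0 for endothelium, 0 and 0 for basement membrane, 3 and 2 for fibrillar collagen, 6 and 3 for type I interferon, 1 and 0 for interferon gamma, 2 and 1 for class I and 2 and 0 for monocytes. Of lower members they kept 2 and 0 for ribosomal proteins, 1 and 1 for ribosome biogenesis, 2 and 1 for the endoplasmic reticulum, 2 and 1 for nucleotides, 1 and 0 for splicing, 1 and 1 for resident macrophages, 2 and 1 for erythroid, 0 and 0 for fatty acid synthesis and 2 and 0 for immediate early genes; mast cells kept 1 under Benjamini-Yekutieli. A log2 change of at least 0.5 left 15 type I interferon, 4 class I, 3 ribosomal protein, 6 biogenesis, 1 endoplasmic reticulum, 7 nucleotide and 0 splicing members. Re-centring on the median of 0.01 gave 616 higher and 540 lower genes and moved none of the 21 counts it was run for (the totals and lists) by over 1.5 times. That median was taken over the 8103 genes with a value, and genes without a value could not become called. The shift was small beside the median SE of 0.13, so this setting could hardly move a count and does not test the normalisation. An expression minimum of 0 was run for the totals and arrangements, and restriction to protein-coding genes for the totals alone; neither moved them by over 1.5 times. No paired analysis was possible because the tables hold no values per mouse; leaving out a mouse, another normalisation and a count test were not run for the same reason, and depth per library is unknown here.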
